A study of Mus musculus with 6 samples.

Results

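The pancreatic duct is described here through 34 genes of its epithelium, listed by name for their known roles: 4 keratins, 3 transcription factors, 7 genes of ion and water transport, 6 of cell junctions and adhesion, 6 of the primary cilium and cyst formation, and 8 of the apical surface and its secretions. They stand among 35527 genes quantified in the whole pancreas of C57BL/6 mice at 1 day after birth. The KO group held 3 libraries from miR216a-/- mice and the WT group 3 libraries from wild-type mice, each library from its own donor mouse. The sources used here do not say how the allele was made or in which cells it is deleted. The pancreas was not separated into cell types. In such bulk samples, fewer cells of a type and less RNA per cell cannot be told apart.

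Pancreatic ducts carry acinar enzymes to the intestine and dilute them with a bicarbonate-rich fluid. Chloride leaves the duct cell through the channel CFTR, bicarbonate enters at its base through sodium-coupled carriers, carbonic anhydrases supply bicarbonate inside, and water follows through aquaporins. Duct cells are held together by claudins and E-cadherin, carry keratin filaments and a single primary cilium, and in the embryo share SOX9 and ONECUT1 with the progenitors of the other pancreatic cells. Loss of ciliary proteins such as polycystins and fibrocystin is known to give pancreatic and renal cysts. Many of these genes are not private to ducts. Acinar cells also make the keratins of simple epithelia and E-cadherin, and red cell precursors, granulocytes, hepatocytes and endothelium each make some of the others.

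The deleted gene encodes miR-216a, an abundant microRNA of the pancreas that lowers the output of messenger RNAs whose 3' untranslated region (UTR) pairs with its seed. Its main mature strand is shown because it defines the genotype (RefSeq, GRCm38.p6, chr11:28757018-28757039, plus strand), with the seed, bases 2 to 8, in capitals.
mmu-miR-216a-5p: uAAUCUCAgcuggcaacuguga
The quantified transcript set held 0 transcripts of Mir216a, so the genotypes rest on the labels.

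In the longest annotated 3' UTR of each gene (GENCODE M21, GRCm38, sense strand), the 7 bases TGAGATT pair with bases 2 to 8 of the microRNA and GAGATTA pairs with bases 2 to 7 ahead of an A. A match was present in 8 of the 34 ductal genes, or 23.5%, against 2569 of 15130 tested genes with an annotated 3' UTR, or 17%. The median UTR length was 701.5 bases for the ductal genes and 1200 bases for all of these genes. None of the 8 held TGAGATTA, the site that combines both. The 8 sites are shown, with the match in capitals, since they are where the missing microRNA could pair with a duct transcript.
Krt7, chr15:101428858-101428880, plus strand: gtgccttgGAGATTAtgctgtgc
Onecut1, chr9:74891449-74891471, plus strand: ttctgcacTGAGATTcactaaaa
Slc4a4, chr5:89238893-89238915, plus strand: caaggaccTGAGATTttcttctt
Pkhd1, chr1:20058117-20058139, minus strand: ttgtatacTGAGATTgtaatcaa
Bicc1, chr10:70923932-70923954, minus strand: aagtccaaGAGATTAgcgaacat
Dcdc2a, chr13:25210271-25210293, plus strand: actatataGAGATTAaattaagc
Prom1, chr5:43993638-43993660, minus strand: cctgatgtTGAGATTtaaaataa
Tspan8, chr10:115849816-115849838, plus strand: gctgatgaTGAGATTgtttaaag
A match is a description of the sequence and does not show that the transcript is bound. The share of each gene's RNA that carries its longest annotated 3' UTR was not determined. The log2 fold changes of KO over WT of these 8 genes lay between -0.05 for Pkhd1 and 0.30 for Dcdc2a. They were 0.10 for Krt7, 0.18 for Onecut1, 0.16 for Slc4a4, 0.14 for Bicc1, -0.02 for Prom1 and 0.01 for Tspan8, and none passed the test described next.

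Each library held between 20565387 and 23028718 estimated reads. A gene was tested if it had 10 or more reads in 3 or more libraries, which 15886 genes and all 34 ductal genes did. The values compared between libraries are CPM, read counts brought to a common library size with TMM factors, and the test was edgeR's quasi-likelihood test with Benjamini-Hochberg adjustment over all tested genes. Some libraries stood apart in markers of other cells. Erythroid markers summed to 4832 CPM in KO 2 and 5962 CPM in WT 1, against 1710 to 2847 CPM in the other 4 libraries. Hepatocyte markers summed to 100.8 to 140.1 CPM in KO and to 113.5 to 765.7 CPM in WT, with WT 1 the highest. The 12 markers of S, G2 and M phase summed to 260.4 to 692.1 CPM in KO and 901.1 to 1132 CPM in WT. No gene of the whole table was called at an adjusted p of 0.05 (0 of 15886), while 2000 genes, 12.6%, had an unadjusted p under 0.05. DESeq2 called 417 genes, or 2.79% of those it gave an adjusted p.

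All 34 genes were detected in all 6 libraries. In TPM, a level per unit of transcript length, the value was highest for Clu, which encodes the secreted chaperone clusterin, and for Spp1, which encodes osteopontin, a secreted phosphoprotein of duct cells. Clu had 617.3, 509.2 and 535 TPM in KO 1 to 3, against 581, 624.3 and 707.5 TPM in WT 1 to 3. Spp1 had 438.1, 377.1 and 343 TPM in KO, against 367.1, 418.3 and 438.6 TPM in WT. The libraries of both groups overlapped for each gene, and these 2 genes made up 42.3% of the summed TPM of all 34. Krt18 averaged 187.6 TPM and Krt8 137.2 TPM over the 6 libraries, followed by Muc1, Ambp and Epcam between 94.3 and 98.8 TPM.

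Cftr and Aqp5 stood at the other end. Cftr, the chloride channel that drives ductal fluid secretion, averaged 0.542 ± 0.170 TPM in KO and 0.608 ± 0.150 TPM in WT (SD, n = 3 each). Aqp5, a water channel of secretory epithelium, averaged 0.363 ± 0.117 TPM in KO and 0.571 ± 0.346 TPM in WT. Its 5 reads in the lowest library set the precision of that value. The levels of the 34 genes ran from over 100 TPM (4 genes) through 10 to 100 TPM (21 genes) and 1 to 10 TPM (7 genes) to under 1 TPM (Cftr and Aqp5). Of the 33 neighbouring pairs in this order, 10 were separated by more than the larger SD of the pair over 6 libraries, so most neighbours did not differ beyond their spread. Summed over the 34 genes, the level was 0.245, 0.213 and 0.236% of all TPM in KO 1 to 3, and 0.225, 0.244 and 0.248% in WT 1 to 3.

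**Figure D1:**
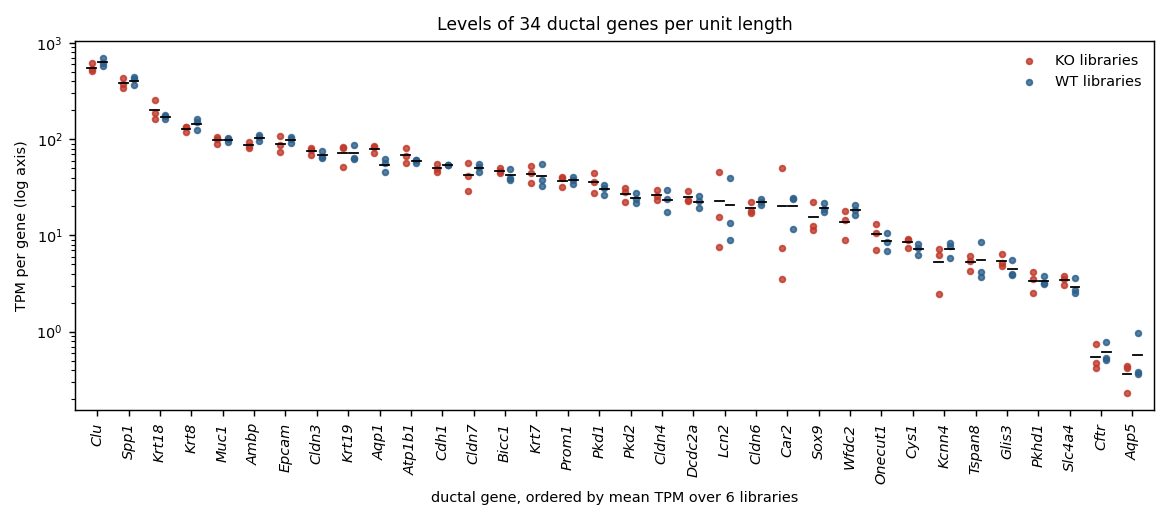
Deposited TPM summed per gene (y axis, log scale) for the 34 ductal genes (x axis, ordered by mean), with one point per library, KO left of WT, and a bar at each group's mean. Levels run from 595.7 TPM for Clu to under 1 TPM for Cftr and Aqp5, and the points of Car2 and Lcn2 spread most.

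Against this background, the duct genes as a set lay near the middle of all genes in the comparison of KO with WT. The median log2 fold change of KO over WT was 0.01 for the 34 genes and 0.01 for all tested genes, with 19 ductal genes above 0 and 15 below. No ductal gene was called by edgeR at an adjusted p of 0.05 (0 of 34, smallest adjusted p 0.213 for Aqp1), where 0% of all genes were. Without adjustment, 2 had a p under 0.05 with the higher mean in KO, against 5.62% of all tested genes, and 1 with the lower mean in KO, against 6.97%. The same 2 genes, Aqp1 and Dcdc2a, had all KO libraries above all WT libraries (9.05% of all genes did), and Ambp had all of them below (10.3%). Each of these counts rests on 1 or 2 of the 34 genes, and was not tested against the share of the whole table. Without KO 1, 4 ductal genes had an unadjusted p under 0.05 with the lower mean in KO (Sox9, Wfdc2, Cldn6 and Epcam), against 8.13% of all genes in that fit, and without WT 3 none had. The summed CPM of the 34 genes was 3229 to 3384 in KO and 3205 to 3887 in WT.

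The precision behind these values was uneven. The standard error of the log2 fold change ran from 0.09 to 0.86 over the 34 genes, and for 30 of them the 95% interval lay wholly within a 2-fold change in either direction. For these, changes larger than that lay outside the interval. How small a change could be resolved differed by gene, with intervals of -0.09 to 0.35 for Pkd2 and -0.95 to 0.14 for Sox9. The 4 genes whose intervals reached beyond a 2-fold change were Car2, Lcn2, Aqp5 and Kcnn4. The interval held 0 for 31 of the 34 genes.

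**Figure D2:**
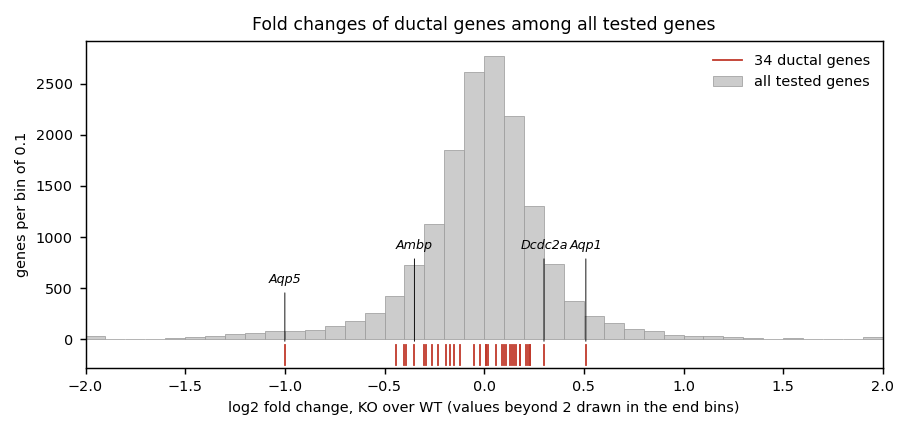
Histogram of the log2 fold change of KO over WT for all 15886 tested genes (y axis, genes per bin of 0.1), with a red tick below it for each of the 34 ductal genes. The ductal ticks sit around 0, and Aqp1 at 0.51 and Aqp5 at -1.0 mark their ends.

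Keratins of simple epithelia form the filaments of duct cells, pairing a type II chain (Krt7 or Krt8) with a type I chain (Krt18 or Krt19). Krt19, the usual histological marker of ducts, had 74.9, 52.0 and 79.7 CPM in KO 1 to 3, against 59.98, 78.2 and 67.5 CPM in WT 1 to 3. The groups overlapped fully (log2 fold change 0.01, 95% interval -0.39 to 0.40). Krt7 had 65.6, 62.5 and 87.5 CPM in KO, against 61.6, 79.7 and 59.5 CPM in WT. Krt8 had 187.3, 188.4 and 188.6 CPM in KO, against 186.2, 204.0 and 271.9 CPM in WT, where WT 3 was high. Krt18 had 185.4, 180.3 and 254.5 CPM in KO, against 168.9, 165.8 and 213.1 CPM in WT, with KO 3 and WT 3 the highest of their groups. The adjusted p of these 4 genes in edgeR's test was between 0.548 and 0.991.

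The wider set of other keratins and of the plakins and desmosomal proteins that anchor them held 17 tested genes of 19 listed, none with an unadjusted p under 0.05 in either direction. Of its members with the smallest p, Ppl, which encodes the cytolinker periplakin, averaged 38.5 ± 11.2 CPM in the KO and 30.5 ± 3.20 CPM in the WT libraries. Krt17 averaged 0.829 ± 0.669 CPM in the KO and 1.27 ± 0.577 CPM in the WT libraries. Krt15 averaged 1.30 ± 1.16 CPM in the KO and 0.777 ± 0.386 CPM in the WT libraries (SD, n = 3 each).

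Among the transcription factors, Sox9, which maintains duct and progenitor identity, had 54.3, 35.0 and 27.9 CPM in KO 1 to 3, against 58.2, 42.5 and 54.1 CPM in WT 1 to 3. KO 3 was the lowest and KO 1 lay within the WT range (log2 fold change -0.40 ± 0.24 SE, edgeR adjusted p = 0.538). Without KO 1 the value was -0.71, with an edgeR adjusted p of 0.0956. In KO 1 to 3 the summed markers of S, G2 and M phase took the order of Sox9, at 692.1, 417.9 and 260.4 CPM. In WT 1 to 3 they did not, at 901.1, 977.4 and 1132 CPM, with WT 1 lowest for them and highest for Sox9. Their part in the Sox9 values was not tested.

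Onecut1, also called Hnf6 and required for duct formation and duct cell cilia in the mouse, had 32.8, 30.1 and 18.3 CPM in KO, against 28.1, 17.3 and 26.3 CPM in WT. Glis3, a zinc finger factor whose loss gives cystic ducts and neonatal diabetes in the mouse, had 28.3, 30.4 and 31.8 CPM in KO, against 21.7, 29.7 and 26.3 CPM in WT. Both groups overlapped for each of these genes.

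Among 24 other duct and progenitor transcription factors, 23 were tested. Of these, 2 had an unadjusted p under 0.05 with the higher mean in KO and 0 with the lower. The shares of all tested genes were 5.62% and 6.97%. Hey1, a Notch effector, averaged 8.26 ± 0.802 CPM in the KO and 6.29 ± 0.479 CPM in the WT libraries (edgeR adjusted p = 0.348). All KO libraries exceeded all WT libraries for Hey1. Rfx6, an endocrine factor, averaged 25.8 ± 10.8 CPM in the KO and 16.4 ± 3.38 CPM in the WT libraries, with overlap.

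In ion and water transport, Aqp1 gave the smallest p of the 34 genes. It encodes aquaporin 1, a water channel of duct cells, capillary endothelium and red cells (GRCm38, chr6:55336432-55348555, plus strand). Aqp1 had 140.7, 181.8 and 164.4 CPM in KO 1 to 3, against 128.2, 105.9 and 107.7 CPM in WT 1 to 3. All KO libraries exceeded all WT libraries, with KO 1 and WT 1 the closest pair. The log2 fold change was 0.51 ± 0.12 SE (95% interval 0.23 to 0.79), and edgeR's adjusted p of 0.213 did not pass. DESeq2 called Aqp1 higher in KO at an adjusted p of 0.0148, as it did 0.843% of the genes given an adjusted p.

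Markers of the other cells that carry aquaporin 1 were not level. The 8 endothelial markers, all detected, summed to 733.7 to 773.6 CPM in KO and 639.7 to 734.7 CPM in WT, and 7 of the 8 had the higher mean in KO. Kdr, a VEGF receptor, was at 120.4, 132.5 and 144.5 CPM in KO 1 to 3, against 122.7, 102.4 and 99.6 CPM in WT 1 to 3. Erythroid markers were high in KO 2, where Aqp1 was highest, and in WT 1, the WT library with the most Aqp1. Without that pair of libraries the log2 fold change of Aqp1 was 0.51. The parts of endothelial and of red cells in the Aqp1 difference were not tested.

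**Figure D3:**
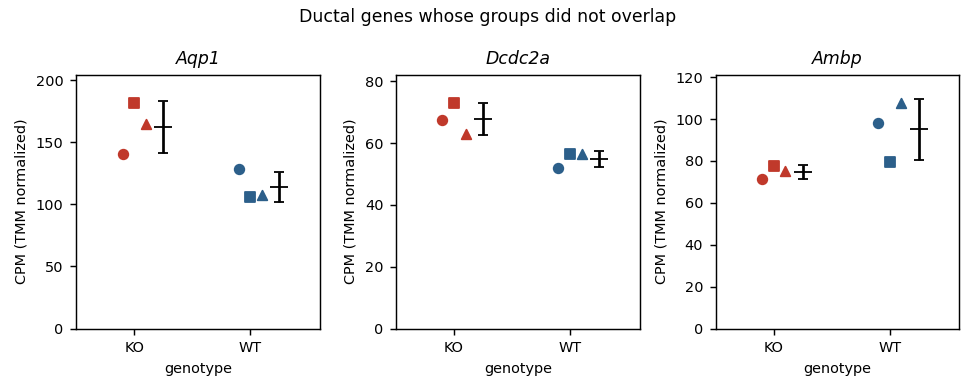
CPM (y axis, from 0) of Aqp1, Dcdc2a and Ambp in each KO and WT library (points, a circle, square and triangle for replicates 1 to 3), with the mean and SD of 3 libraries beside them. KO libraries lie above WT libraries for Aqp1 and Dcdc2a and below them for Ambp, and no gene passed adjustment in edgeR's test.

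Car2, which encodes the cytosolic carbonic anhydrase II of duct cells and of red cells, varied most. It had 8.34, 64.7 and 3.98 CPM in KO 1 to 3, against 29.2, 27.1 and 15.6 CPM in WT 1 to 3. KO 2 was the highest of all libraries and the other KO libraries were the lowest, a range of 16.3-fold. The red cell anion exchanger gene Slc4a1 had 14.7, 179.5 and 8.81 CPM in the same KO libraries, against 78.9, 31.5 and 35.3 CPM in WT, so that KO 2 was highest and KO 1 and KO 3 lowest for it too. The log2 fold change of Car2 was 0.09 ± 0.86 SE, and without KO 2 it was -1.97 ± 0.38 SE (edgeR adjusted p = 0.294). The part of red cell precursors in the Car2 values was not tested.

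The remaining transport genes overlapped between groups. Slc4a4, the basolateral sodium bicarbonate cotransporter NBCe1, had 19.7, 17.1 and 21.6 CPM in KO, against 15.3, 19.3 and 17.6 CPM in WT. Atp1b1, the beta subunit of the sodium pump, had 105.2, 99.1 and 120.1 CPM in KO, against 102.1, 89.7 and 100.7 CPM in WT. Kcnn4, a calcium-activated potassium channel, had 8.39, 10.8 and 3.51 CPM in KO, against 11.3, 10.5 and 8.83 CPM in WT, with KO 3 apart from the rest. Cftr had 3.39, 2.29 and 2.14 CPM in KO, against 2.51, 3.49 and 2.80 CPM in WT. Aqp5 had 0.236, 0.254 and 0.428 CPM in KO, against 0.332, 1.04 and 0.475 CPM in WT, and its interval of -2.23 to 0.22 on the log2 scale shows how little its few reads resolve.

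Of 32 other genes for bicarbonate and fluid secretion, 29 were tested and none was called by edgeR. An unadjusted p under 0.05 was found for 3 with the higher mean in KO and 2 with the lower. Of all tested genes, 5.62% and 6.97% had such a p. Car9, a membrane carbonic anhydrase known for its induction by low oxygen, had 4.81, 2.90 and 3.85 CPM in KO, against 6.49, 8.22 and 11.3 CPM in WT. Car4, another membrane carbonic anhydrase, had 1.32, 1.12 and 0.898 CPM in KO, against 1.80, 1.92 and 2.42 CPM in WT. All KO libraries lay under all WT libraries for both. The log2 fold change of Car9 was -1.17 ± 0.27 SE (edgeR adjusted p = 0.207), and DESeq2 called it lower in KO at an adjusted p of 0.00646. Wnk4, a kinase that regulates chloride transporters, averaged 22.1 ± 1.88 CPM in the KO and 16.1 ± 2.70 CPM in the WT libraries, and all KO libraries exceeded all WT libraries (edgeR adjusted p = 0.269).

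**Figure D4:**
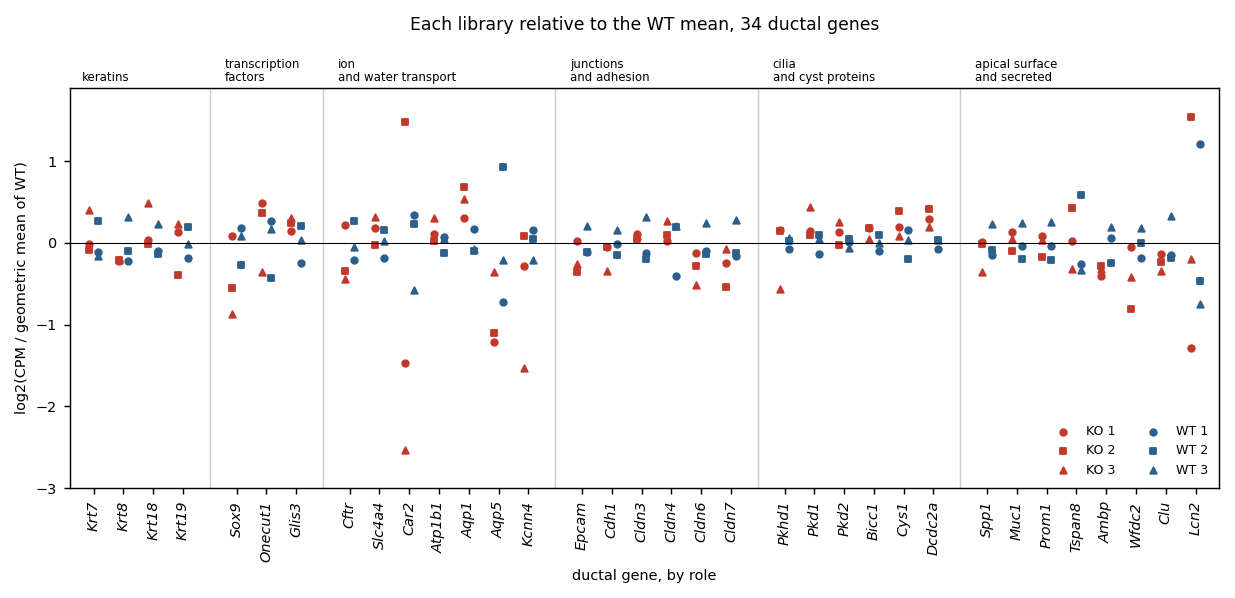
Log2 of each library's CPM over the geometric mean of the 3 WT libraries (y axis) for the 34 ductal genes grouped by role (x axis), with KO libraries left of WT libraries and one symbol per replicate. Most points lie within 0.5 of 0, and Car2, Aqp5, Kcnn4 and Lcn2 hold the widest spreads.

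The junction genes showed no group separation. Cdh1, which encodes E-cadherin, had 187.2, 186.9 and 152.6 CPM in KO 1 to 3, against 192.0, 175.5 and 215.5 CPM in WT 1 to 3. Epcam, the epithelial adhesion molecule, had 121.7, 93.8 and 99.97 CPM in KO, against 111.1, 111.1 and 138.3 CPM in WT. For both genes WT 3 was the highest library, and the KO and WT ranges overlapped.

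Claudins seal the space between duct cells and set which ions pass. Cldn3 was the most abundant of the 4 claudins per unit length, at 75.4 ± 6.85 TPM in KO and 68.3 ± 5.61 TPM in WT (SD, n = 3 each). In CPM, Cldn3 had 63.1, 60.5 and 62.3 in KO, against 54.1, 51.3 and 72.9 in WT. Cldn4 had 32.7, 34.4 and 38.8 CPM in KO, against 24.3, 36.8 and 37.2 CPM in WT. Cldn7 had 29.0, 23.6 and 32.8 CPM in KO, against 30.8, 31.5 and 42.0 CPM in WT. Cldn6, a claudin of embryonic epithelia, had 22.5, 20.1 and 17.1 CPM in KO, against 22.7, 22.2 and 28.8 CPM in WT, and KO 1 alone reached into the WT range (edgeR adjusted p = 0.456).

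Among 39 other tight and adherens junction genes, 36 were tested. Of these, 3 had an unadjusted p under 0.05 with the higher mean in KO and 1 with the lower, next to 5.62% and 6.97% of all genes. Pard6b, a polarity protein of the apical domain, averaged 21.4 ± 1.61 CPM in the KO and 16.4 ± 1.503 CPM in the WT libraries (edgeR adjusted p = 0.258). Afdn, which encodes afadin of adherens junctions, averaged 119.0 ± 3.08 CPM in the KO and 103.5 ± 2.33 CPM in the WT libraries (edgeR adjusted p = 0.327). Lsr, which encodes angulin-1 of the corners where 3 cells meet, averaged 35.9 ± 0.956 CPM in the KO and 44.8 ± 5.87 CPM in the WT libraries (edgeR adjusted p = 0.301). The groups did not overlap for any of these genes, as for 19.3% of all tested genes.

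In the ciliary group, 1 of 6 genes had an unadjusted p under 0.05 and the higher mean in KO, against 5.62% of all tested genes. Dcdc2a encodes a doublecortin domain protein that binds the microtubules of the ciliary axoneme, and lies on chr13:25056004-25210706, plus strand (GRCm38). Dcdc2a had 67.6, 73.1 and 62.8 CPM in KO 1 to 3, against 52.0, 56.4 and 56.6 CPM in WT 1 to 3. All KO libraries exceeded all WT libraries (log2 fold change 0.30 ± 0.09 SE, 95% interval 0.09 to 0.51, edgeR adjusted p = 0.258). Per unit length the groups overlapped, with 23.6, 22.8 and 28.9 TPM in KO, against 19.2, 25.7 and 22.6 TPM in WT. With an offset for the effective transcript length in each library, the log2 fold change was 0.13 (edgeR adjusted p = 0.768), and without KO 2 and WT 1 it was 0.20 (edgeR adjusted p = 0.576). The transcript Dcdc2a-204 took 42.1 ± 5.83% of the gene's TPM in KO and 53.3 ± 2.92% in WT, and Dcdc2a-202 took 46.6 ± 8.91% in KO and 41.4 ± 4.68% in WT (SD, n = 3 each). Its seed match lies near the end of a 3' UTR of 5188 bases, at base 4761.

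The genes of polycystic disease were closer together. Pkd1, which encodes polycystin 1, had 140.4, 134.7 and 171.8 CPM in KO, against 114.6, 135.1 and 130.5 CPM in WT. Pkd2, the partner channel polycystin 2, had 97.6, 87.8 and 106.3 CPM in KO, against 89.9, 92.2 and 85.1 CPM in WT. Pkhd1, which encodes fibrocystin, had 41.0, 40.8 and 24.9 CPM in KO, against 34.9, 37.3 and 38.3 CPM in WT, with KO 3 the lowest library. All 3 genes overlapped between groups.

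Bicc1, an RNA-binding protein that keeps ducts and renal tubules free of cysts in the mouse, had 195.3, 195.6 and 178.3 CPM in KO, against 160.6, 183.8 and 171.4 CPM in WT. Cys1, which encodes the ciliary membrane protein cystin, had 8.20, 9.40 and 7.61 CPM in KO, against 8.01, 6.25 and 7.31 CPM in WT. Each overlapped between groups by 1 library. Summed over the 6 genes, CPM was 541.4 to 551.6 in KO and 460 to 511 in WT, and Bicc1 and Pkd1 contributed most of it. Their summed TPM, corrected for transcript length, overlapped between groups, at 151.2, 128.1 and 162.8 in KO 1 to 3, against 124.5, 146 and 120 in WT 1 to 3.

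The wider set of cilia and cystic disease genes held 51 tested genes of 52 listed. An unadjusted p under 0.05 was found for 3 with the higher mean in KO and 2 with the lower. The same held for 5.62% and 6.97% of all tested genes. Rfx3, a factor that drives ciliary genes, averaged 23.3 ± 2.75 CPM in the KO and 17.5 ± 3.07 CPM in the WT libraries (edgeR adjusted p = 0.335). Bbs2, a subunit of the BBSome that carries cargo to the cilium, averaged 15.6 ± 0.611 CPM in the KO and 12.9 ± 0.426 CPM in the WT libraries (edgeR adjusted p = 0.363). Prkcsh, the beta subunit of glucosidase II and a gene of polycystic liver disease, averaged 52.6 ± 2.06 CPM in the KO and 62.0 ± 3.35 CPM in the WT libraries (edgeR adjusted p = 0.314). The median log2 fold change of this set was 0.04.

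Of the secreted and surface genes, Ambp had the smallest p. It encodes the precursor of alpha-1-microglobulin and bikunin, a secreted protein best known from liver (GRCm38, chr4:63143275-63154799, minus strand). Ambp had 71.3, 77.5 and 75.4 CPM in KO 1 to 3, against 98.1, 79.4 and 107.8 CPM in WT 1 to 3. All KO libraries lay under all WT libraries, though KO 2 and WT 2 were nearly level (log2 fold change -0.35 ± 0.12 SE, 95% interval -0.62 to -0.07, edgeR adjusted p = 0.293). Hepatocyte markers, of which 11 of 12 were tested, summed to 100.8 to 140.1 CPM in KO and, in WT 1 to 3, to 765.7, 113.5 and 125 CPM. The part of hepatocytes in the Ambp values was not tested. Without WT 1 the log2 fold change was -0.32 (edgeR unadjusted p = 0.0627), and without WT 3 it was -0.24 (edgeR unadjusted p = 0.0868). Without KO 1 it was -0.31 (edgeR unadjusted p = 0.0568).

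For Clu and Spp1, the most abundant of the 34 genes, WT 3 was the highest and KO 3 the lowest library in CPM. The libraries between them took different orders, and in TPM the lowest library for Clu was KO 2. Clu had 795.8, 745.4 and 691.1 CPM in KO, against 795.3, 772.1 and 1100 CPM in WT. Spp1 had 391.7, 384.7 and 304.9 CPM in KO, against 349.9, 366.3 and 457.6 CPM in WT. Macrophages also make osteopontin, and their 9 markers summed to 616.1, 609.2 and 502 CPM in KO and to 620.4, 619.5 and 595.9 CPM in WT. KO 3 was the lowest library there as well, while WT 3, the highest for Spp1, was the lowest of the WT libraries. The part of macrophages in the Spp1 values was not tested. Over the 34 genes, WT 3 was the highest library for 12 and KO 3 for 9, and KO 3 was also the lowest for 9.

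The apical genes Muc1 and Prom1 had nearly equal means in both groups. Muc1, a membrane mucin of the duct lumen, averaged 104.0 ± 8.22 CPM in the KO and 102.9 ± 16.2 CPM in the WT libraries, and its 95% interval of -0.27 to 0.31 on the log2 scale held 0. Prom1, which encodes prominin 1 of apical protrusions, averaged 70.2 ± 6.38 CPM in the KO and 71.3 ± 11.98 CPM in the WT libraries (95% interval -0.33 to 0.29). Tspan8, a tetraspanin, averaged 4.78 ± 1.24 CPM in the KO and 4.72 ± 1.78 CPM in the WT libraries. Wfdc2, a secreted protease inhibitor-like protein also called HE4 in human, had 8.76, 5.18 and 6.80 CPM in KO, against 7.96, 9.02 and 10.3 CPM in WT, where KO 1 lay within the WT range.

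Lcn2, which encodes lipocalin 2, an iron-sequestering protein of inflamed epithelium and of granulocytes, had 4.43, 31.4 and 9.36 CPM in KO 1 to 3, against 24.9, 7.82 and 6.41 CPM in WT 1 to 3. KO 2 and WT 1 stood far above the other libraries. The 10 markers of neutrophils and their precursors, all tested, summed to 45.7, 424 and 35.4 CPM in KO, against 422.6, 143.8 and 83.4 CPM in WT, with the same libraries on top. S100a8, which encodes a calcium-binding protein abundant in neutrophils, had 95.4 CPM in KO 2 and 92.6 CPM in WT 1, against 7.10 to 29.1 CPM elsewhere. The log2 fold change of Lcn2 was 0.21 ± 0.73 SE, and without that pair of libraries it was -0.05 ± 0.36 SE. The part of granulocytes in the Lcn2 values was not tested.

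**Figure D5:**
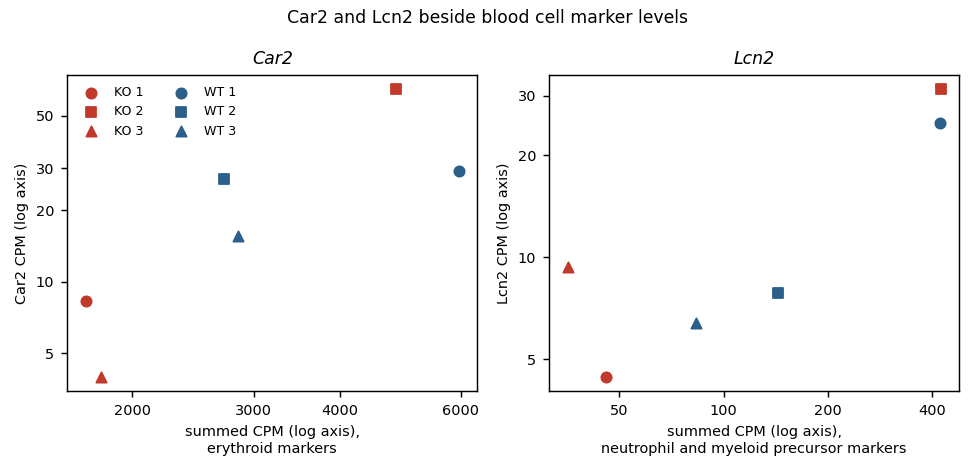
CPM (y axes, log scale) of Car2 beside the summed CPM of erythroid markers and of Lcn2 beside that of neutrophil and myeloid precursor markers (x axes, log scale), one point per library. KO 2 and WT 1 lie at the right of both panels, with Lcn2 at 31.4 and 24.9 CPM there and under 10 CPM in the other 4 libraries.

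Among 36 other genes of the duct surface and secretions, 33 were tested. Of these, 4 had an unadjusted p under 0.05 with the higher mean in KO and 2 with the lower, next to 5.62% and 6.97% of all genes. Lgals4, a galectin of polarized epithelia, had 15.5, 23.3 and 18.9 CPM in KO, against 8.43, 9.34 and 7.88 CPM in WT. Its log2 fold change was 1.17 ± 0.17 SE at an edgeR adjusted p of 0.207, and all KO libraries exceeded all WT libraries. Without KO 1 it was called higher in KO at an edgeR adjusted p of 0.00849, where 2.31% of all genes were called. Lgals4 is also made by intestine and stomach. Of 11 markers of those organs 3 were detected well enough to test, Lgals4 among them, and 2 were at 0 in all libraries, and the part of such tissue was not tested. Defb1, an epithelial antimicrobial peptide, had 1.79, 1.42 and 1.20 CPM in KO, against 0.426, 0.561 and 0.902 CPM in WT (edgeR adjusted p = 0.258). Tff2, a trefoil peptide secreted with mucins, had 175.1, 168.1 and 128.6 CPM in KO, against 207.4, 198.7 and 276.7 CPM in WT (edgeR adjusted p = 0.258).

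Taking the 6 wider lists as one set, 189 of 202 genes were tested. Of these, 15 had an unadjusted p under 0.05 with the higher mean in KO and 7 with the lower, next to 5.62% and 6.97% of all genes. The median log2 fold change was 0.04. DESeq2 called 2 of them, Car9 and Lgals4, against 2.79% of all genes it gave an adjusted p, and edgeR called none. With all libraries 22 had an unadjusted p under 0.05 in either direction, next to 12.6% of all tested genes. Without WT 2 or without WT 3 they numbered 13, and the range over all libraries left out is given below. The share of all genes in those fits is not given, so the lower count cannot be read as particular to these lists.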

How the data were processed

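The submitters' processing notes list bcl2fastq, Salmon 0.13.1, DESeq2 1.24.0 and the build mm10, with no order. Per the file headers, the authors deposited estimated counts, TPM and effective lengths from Salmon for 116248 transcripts per library, of which 115995 matched GENCODE M21 by versioned identifier with equal length. The others held 0.0341 to 0.0458% of reads and were left out. Another deposited table, of 17324 genes, holds a scaled signal and not counts (0.566 to 0.791% of its values were whole to within 1e-06), used in 1 alternative only. The labels' protocols name a stranded mRNA kit. How strand was set in quantification is not given, so reads of Pkd1 and Tsc2, or of Atp1b1 and Nme7, which overlap on opposite strands, may not be fully separated.

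Estimated counts were summed per gene and rounded. Genes with 10 or more reads in 3 or more libraries were tested with edgeR 4.0.16 (quasi-likelihood, TMM) in R 4.3.3, with DESeq2 1.42.0 and limma 3.58.1 as alternatives. TPM was used for levels between genes and CPM between libraries. Groups came from the genotype label. Replicate numbers follow sample order and pair no libraries. The labels give one mouse per library and no sex, litter or batch. With 3 against 3 libraries an exact permutation test cannot go below p = 0.1, two-sided. The fits were tested on simulated data with 2-fold changes. There, DESeq2 made false calls more often than edgeR and also recovered more of the true changes.

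The 34 genes, the wider lists and the markers were chosen with earlier results of these data known. All 34 are given. Of each wider list the up to 3 genes with the smallest p are named (1 of them is not reported here), and Kdr was picked from the endothelial markers after its values were seen. 3 listed symbols (Ahsp, Pals1, Tctn2) had no match in the table. Alternatives covered normalization, filters, tests, a length offset, input and libraries left out.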

Additional observations from a re-analysis of the deposited data

How the results depend on the processing

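Signs and counts were recomputed under 17 alternatives. The log2 fold changes of 22 of the 34 ductal genes kept their sign in every alternative that gave them a value, which was 17 for each gene but Aqp5, with 12, and the 12 that turned were at most 0.21 in size. The cause of each change was not tested. The number of genes called among all tested was 1 with no filter, 417 with DESeq2, 2 with limma-voom, 1 without WT 1 and KO 2, and 0 to 363 with one library left out (363 without KO 1). DESeq2 called 1 ductal gene, Aqp1, and 2 genes of the wider lists, against 2.79% of all genes it gave an adjusted p. Leaving out one library gave 0 to 1 in the wider lists. Ductal genes with an unadjusted p under 0.05 and the higher mean in KO numbered 1 with the length offset, without WT 1 and KO 2, and in the deposited table. With the lower mean they numbered 0 to 4 with one library left out, and the wider lists held 13 to 29 in either direction. Apart from the fit without KO 1, the share of all genes with such a p in these fits is not given.

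Without WT 1 and KO 2 the log2 fold change was -1.80 for Car2, -0.05 for Cldn4, 0.02 for Prom1, -0.34 for Tspan8 and -0.05 for Lcn2. With upper-quartile factors it was -0.02 for Krt19, -0.00 for Muc1 and -0.01 for Tspan8. With limma-voom it was -0.01 for Krt19 and -0.92 for Car2. With the length offset it was -0.01 for Krt19, -0.05 for Muc1 and -0.05 for Tspan8. In the deposited table it was -0.02 for Krt19, -0.83 for Car2, -0.04 for Muc1 and -0.00 for Tspan8. With one library left out, it ranged from -0.06 to 0.25 for Krt7, -0.11 to 0.17 for Krt19, -0.01 to 0.40 for Onecut1, -1.97 to 0.60 for Car2, -0.03 to 0.24 for Cldn3, -0.07 to 0.21 for Cldn4 and -0.17 to 0.15 for Pkhd1. It ranged from -0.19 to 0.01 for Spp1, -0.08 to 0.15 for Muc1, -0.12 to 0.12 for Prom1, -0.20 to 0.37 for Tspan8, -0.91 to 1.08 for Lcn2 and -0.16 to 1.24 for Krt15.

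No paired analysis was possible because the replicate numbers follow sample order and tie no KO library to a WT library. Aqp5, with 5 to 26 reads a library, and Cftr, with 45 to 87, are limited by depth.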

Other observations

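One value outside the comparisons was chosen after the data were seen. KRT8 and KRT18 pair in filaments. KRT7 can take the place of KRT8, and KRT19 that of KRT18, so the transcripts of Krt8 and Krt18 need not be equal. The ratio of these transcripts can be read within a library, free of its scaling. Krt18 over Krt8 in CPM was 0.990, 0.957 and 1.35 in KO 1 to 3, against 0.907, 0.813 and 0.784 in WT 1 to 3. The groups did not overlap, at 1.10 ± 0.218 in KO and 0.834 ± 0.0644 in WT (SD, n = 3 each). The exact permutation test gave p = 0.1, two-sided, the smallest it can give with 3 against 3. Any groups that do not overlap give this p, so it adds nothing for a ratio chosen after the data were seen. Of all single genes tested, 19.3% had groups that did not overlap. KO 3 alone lay far from the other libraries.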
